A study of Mus musculus with 10 samples.

Results

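The enzymes of phase II metabolism, which conjugate drugs, toxins, bile pigments and hormones to a carrier molecule, were followed in the open chromatin of mouse colon organoids. Members were all protein-coding genes of GRCm38 (GENCODE release M21) whose symbol begins with *Gsta*, *Gstm*, *Gstp*, *Gstt*, *Gsto*, *Gstk*, *Gstz*, *Mgst*, *Ugt1a*, *Ugt2a*, *Ugt2b*, *Ugt3a* or *Sult1* to *Sult6*. This gave 67 of 21938 genes: 22 *Gst* and 3 *Mgst* genes for glutathione transferases, 21 *Ugt* genes for UDP-glucuronosyltransferases and 21 *Sult* genes for cytosolic sulfotransferases. Colon crypts of C57BL/6 mice were grown as organoids from Vil-cre Ahr fl/fl mice, in which the gut epithelial Villin promoter drives Cre so that the aryl hydrocarbon receptor gene *Ahr* is lost in the epithelium (AHR KO), and from WT littermates. Omni-ATAC-seq, in which a transposase cuts and tags open DNA, was done on 50000 live sorted cells per library. Of the 10 libraries, 2 were WT and 3 AHR KO in WENR, and 3 were WT and 2 AHR KO in d4 ENR. All organoids received EGF, Noggin and R-spondin1 with N-acetylcysteine in the basal medium. WENR added Wnt3a-conditioned medium, the p38 inhibitor SB202190, the TGF-beta receptor inhibitor A83-01 and nicotinamide, and d4 ENR organoids had been without these for 4 days, so the media differ by all of them together. The methods describe crypts of several mice as replicates for organoid cultures in general but do not tie these libraries to mice or organoid lines, so each p-value measures the spread between these libraries, which may be technical.

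Glutathione transferases join glutathione to electrophilic compounds, UDP-glucuronosyltransferases add glucuronic acid to bilirubin, steroids and many drugs, and sulfotransferases add a sulfonate group from the donor PAPS. Each reaction makes the compound more soluble, and transporters then carry the conjugate out of the cell. Several of these genes are textbook targets of AHR, which binds DNA with its partner ARNT after a ligand enters the cell, and of NRF2, which is released from KEAP1 under oxidative or electrophilic stress. The *Ugt1a* genes share their last exons, and each has its own first exon and promoter, so that the 9 members overlap along a single locus.

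Per library, 30354729 to 49126792 fragments stood behind the peaks. The WENR libraries held 61485 to 65308 peaks over 61.8 to 67.2 Mb, and the d4 ENR libraries 33433 to 58359 peaks over 26.2 to 50.1 Mb. WT d4 ENR replicate 1 had the fewest, and in d4 ENR both AHR KO libraries covered more (46.6 and 50.1 Mb) than the 3 WT libraries (26.2, 32.1 and 41.0 Mb). Of all coverage, 63.0 to 68.6% lay in peaks in the WENR libraries, 14.1 to 30.9% in WT d4 ENR and 33.8 to 44.2% in AHR KO d4 ENR. These differences between libraries move with the medium and, in d4 ENR, with the genotype, and their part in the results was not tested. All 6 epithelial markers had a promoter peak in all 10 libraries, with 52558 to 60080 bp of summed peaks in WENR and 26382 to 46427 bp in d4 ENR. Of the leukocyte markers none had a promoter peak in any library, *Cd3e* and *Lyz2* had no peak, and the summed peaks over the list reached 307 to 546 bp in WENR and 0 to 674 bp in d4 ENR. The other lists gave 2953 to 3767 and 1408 to 2837 bp for fibroblasts (*Col1a2* and *Dcn* at 0, *Pdgfra* with a promoter peak in 10 libraries), 2410 to 3631 and 271 to 2105 bp for endothelium, and 251 to 4277 and 0 to 664 bp for nerve (*Sox10* at 0). Their part in the results was not tested, and fewer open cells cannot be told apart from less open chromatin per cell. At *Ahr* itself, peaks covered 2142 to 2544 bp in WT and 5130 to 7017 bp in AHR KO libraries in WENR, and 1216 to 1595 and 3250 to 3541 bp in d4 ENR, and a peak list cannot show the deletion.

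Glutathione transferase promoters were open in nearly every case, whereas most glucuronosyltransferase and sulfotransferase promoters had no peak. A promoter was taken as 1 kb upstream to 100 bp downstream of an annotated start. Among the 25 *Gst* and *Mgst* genes, 23 had a promoter peak in all 10 libraries, the exceptions being *Gsta2* with a peak in 2 libraries and *Gstt4* with none. Among the 21 *Ugt* genes, 4 had one in all 10 libraries, and these were *Ugt1a7c*, *Ugt1a6a*, *Ugt1a1* and *Ugt2b34*. Among the 21 *Sult* genes, 4 had one in all 10, and these were *Sult1b1*, *Sult1d1*, *Sult1c2* and *Sult2b1*. In all, 31 members (46.3%) had a promoter peak in all 10 libraries, against 53.3% of all genes, and 30 members (44.8%) had one in no library, against 34.6% of all genes. A further 6 members lay between, with *Sult1a1* in 9 libraries, *Sult4a1* in 4, *Ugt2b36* in 3, *Gsta2* and *Ugt2b35* in 2 each and *Sult1c1* in 1. The number of members with a promoter peak was 32 to 34 in WENR and 32 to 35 in d4 ENR, while the share of all genes went from between 62.2% and 63.1% in WENR to between 54.3% and 60.2% in d4 ENR.

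Members with no peak in any library from 5 kb before to 5 kb after the gene were *Gstt4*, *Ugt2a1*, *Ugt2a2*, *Ugt2a3*, *Ugt2b37*, *Ugt2b38*, *Ugt3a2*, *Sult2a1*, *Sult2a3* to *Sult2a8*, *Sult3a1* and *Sult3a2*, 16 in all. An absent peak says only that the window did not pass the caller's threshold. The other 51 members had a peak in at least 1 library and entered the tests, and 41 of them had one in all 10. Near-identical copies can lose reads to each other. Within the 250 bases upstream of the start, 5 members matched another member at 90% identity or more, among them *Ugt2b37* with *Ugt2b38* (95.3%), and none of the 5 had a promoter peak. *Gstp1* and *Gstp2* (85.0%) and *Gsta1* and *Gsta2* (83.0%) are further pairs whose reads may be shared. How reads that map to several places were treated is not given in the sources used here.

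The sequence upstream of 6 open promoters is shown because these genes are either the members with the most covered bases or textbook targets of AHR or NRF2, and all 6 had a promoter peak in 10 of 10 libraries. More genes than these qualified, among them *Sult2b1* and *Gsta1*, and genes whose run held a searched motif were taken first. How many of the 6 runs hold a match was therefore set by the choice. Each run is the 250 bases before the RefSeq start on GRCm38.p6, written along the direction of transcription, and capitals mark a match to a searched motif on either strand. The runs lie at chr1:88134559-88134808 (+) for *Ugt1a6a*, chr1:167393842-167394091 (−) for *Mgst3*, chr3:108017974-108018223 (−) for *Gstm1*, chr19:4037913-4038162 (−) for *Gstp1*, chr1:88211709-88211958 (+) for *Ugt1a1* and chr1:88094751-88095000 (+) for *Ugt1a7c*.
*Ugt1a6a*: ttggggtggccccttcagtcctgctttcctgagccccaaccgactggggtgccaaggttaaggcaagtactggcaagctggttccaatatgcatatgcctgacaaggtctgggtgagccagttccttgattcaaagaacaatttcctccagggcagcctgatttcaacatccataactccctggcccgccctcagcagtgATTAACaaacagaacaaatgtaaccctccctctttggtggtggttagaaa
*Mgst3*: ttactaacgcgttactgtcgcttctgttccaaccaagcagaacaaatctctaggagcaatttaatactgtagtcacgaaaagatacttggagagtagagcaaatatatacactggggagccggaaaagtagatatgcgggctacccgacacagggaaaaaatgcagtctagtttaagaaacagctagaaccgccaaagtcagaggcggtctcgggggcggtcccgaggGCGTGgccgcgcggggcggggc
*Gstm1*: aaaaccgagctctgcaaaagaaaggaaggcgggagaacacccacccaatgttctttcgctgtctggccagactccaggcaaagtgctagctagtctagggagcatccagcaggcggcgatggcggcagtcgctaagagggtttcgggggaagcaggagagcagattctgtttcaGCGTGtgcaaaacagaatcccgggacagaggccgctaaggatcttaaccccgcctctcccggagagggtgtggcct
*Gstp1*: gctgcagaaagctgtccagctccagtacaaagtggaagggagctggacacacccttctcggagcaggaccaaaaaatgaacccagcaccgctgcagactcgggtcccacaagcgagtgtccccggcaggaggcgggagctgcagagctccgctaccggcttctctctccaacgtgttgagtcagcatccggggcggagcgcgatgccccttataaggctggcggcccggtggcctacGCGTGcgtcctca
*Ugt1a1*: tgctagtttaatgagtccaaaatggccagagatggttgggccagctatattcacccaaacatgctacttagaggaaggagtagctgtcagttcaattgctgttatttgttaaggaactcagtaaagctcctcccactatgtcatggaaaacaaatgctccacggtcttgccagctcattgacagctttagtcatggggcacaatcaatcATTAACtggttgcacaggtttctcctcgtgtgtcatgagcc
*Ugt1a7c*: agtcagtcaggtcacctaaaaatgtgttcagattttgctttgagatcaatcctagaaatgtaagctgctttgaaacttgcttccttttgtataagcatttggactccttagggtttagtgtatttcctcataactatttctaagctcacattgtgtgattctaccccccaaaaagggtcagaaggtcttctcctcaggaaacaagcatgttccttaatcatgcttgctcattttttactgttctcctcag

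In these runs the core of the AHR:ARNT site, GCGTG, begins 22 bases before the start of *Mgst3*, 76 bases before that of *Gstm1* and 13 bases before that of *Gstp1*. The HNF1 string GTTAAT, read here on the other strand, begins 50 bases before the start of *Ugt1a6a* and 41 bases before that of *Ugt1a1*. The *Ugt1a7c* run holds no match. The RefSeq table held 71 such windows for 59 of the 67 members, 40 of them at members with a promoter peak in all 10 libraries and 26 at members with none. GCGTG was found in 12 of the 71 (16.9%), in 9 of the 40 open windows (22.5%) and in 2 of the 26 without a peak (7.69%), against 28.2% of all 32851 windows. Some members have several windows that overlap, and those of *Gstm1* hold the same GCGTG. The counts are therefore of windows, not of separate promoters. GTTAAT was found in 14 of 71 (19.7%), in 4 of 40 open windows (10.0%) and in 9 of 26 without a peak (34.6%), against 6.43% of all windows. The median GC content was 52.8% in the open windows, 35.4% in those without a peak and 52.4% over all windows. The core of the NRF2 antioxidant response element, TGACNNNGC, was in 4 of 71 windows (5.63%, against 10.2% of all), the CDX2 string TTTATG in 5 (7.04%, against 10.8%) and the HNF4 string CAAAGTCCA in 0 (against 0.384%). A GC that ends TGACNNNGC can also begin GCGTG, so both strings can match over the same bases, and a match describes letters, not a site.

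**Figure D1:**
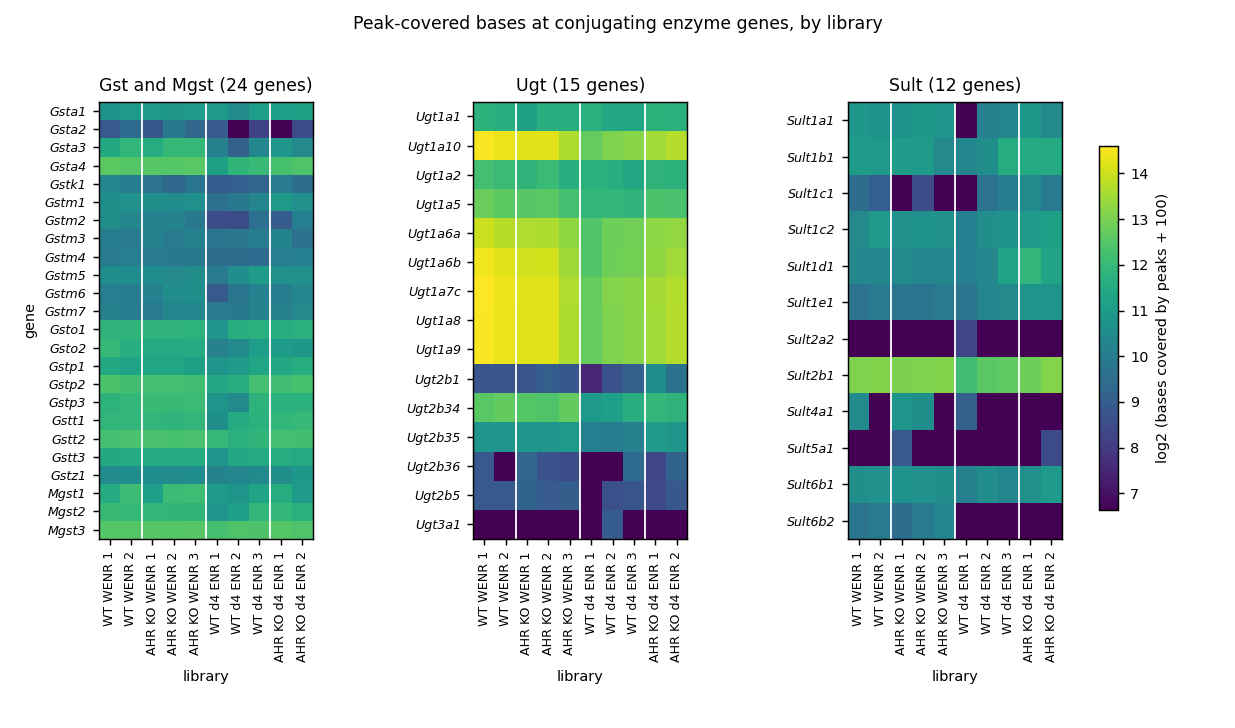
Peak-covered bases per gene, from 5 kb before to 5 kb after the gene, as log2(bases + 100), for the 51 members with a peak in at least 1 library (rows) in each of the 10 libraries (columns, groups parted by white lines). *Ugt1a6a*, *Ugt1a6b*, *Ugt1a7c* and *Ugt1a8* to *Ugt1a10* are brightest and darken on average in d4 ENR, while *Ugt1a1* does not darken. *Sult6b2* is at 0 in all 5 d4 ENR libraries, and *Sult1d1* and *Sult1e1* brighten there on average.

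Peaks at the members merged into 139 distinct regions, of which 29 lay at more than 1 member. Promoter regions were the most regular, with 34 of 44 (77.3%) holding a peak in all 10 libraries, against 12 of 52 in introns (23.1%), 11 of 38 in flanks (28.9%) and 0 of 5 in exons. Over all 139, 57 (41.0%) held a peak in all 10 libraries, against 32.9% of the 85680 regions of the genome. The 139 lie in genes or within 5 kb of them, and the 85680 lie at any distance from genes. The 2 sets are therefore unlike, here and wherever a share of all regions is given. Counted by gene, a promoter peak in all 10 libraries was less frequent among the members (46.3%) than among all genes (53.3%). WENR libraries had peaks in 100 to 104 of the 139 regions, the WT d4 ENR libraries in 64, 88 and 94, and the AHR KO d4 ENR libraries in 95 and 102. Regions open in all 5 WENR and no d4 ENR library numbered 3 (2.16%, against 5.46% of all regions), and they lay in an intron of *Ugt2b34*, at an exon of *Sult6b2* and in the flank of *Sult1a1*. A single region (0.719%, against 0.317%) was open in all 5 d4 ENR and no WENR library, and it lay at the outermost start of *Sult1b1*.

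The comparison of the media asked how far open chromatin at these genes changed when Wnt3a and the inhibitors were removed. Of the 51 members tested, 20 fell and 2 rose in d4 ENR (limma on log2(covered bases + 100), adjusted p of at most 0.05 over all genes). That is 39.2% and 3.92% of the members, against 57.8% and 0.983% of the 17290 genes tested. The median difference was −0.30 on the log2 scale over the members and −0.48 over all genes. The 20 that fell were 8 *Gst* or *Mgst* genes, 10 *Ugt* genes, 8 of which are *Ugt1a* genes sharing their peaks, and 2 *Sult* genes. Both that rose were *Sult* genes. In 8 members, every d4 ENR library lay below every WENR library (15.7%, against 46.2% of genes), and in 0 every one lay above (0.237% of genes). When the covered bases were divided by the Mb covered in the whole list, the median over all genes moved from −0.48 to 0.14. There 22 members were called higher (43.1%, against 30.6% of genes) and 3 lower (5.88%, against 14.7% of genes). Of the 20 that fell, 3 were then still called lower (*Sult6b2*, *Gsta3* and *Ugt2b34*), 9 were lower without a call and 8 were higher, while both that rose were still called higher. *Sult6b2* is at 0 in every d4 ENR library and was tested only because of its WENR peaks, so its direction was fixed by that.

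**Figure D2:**
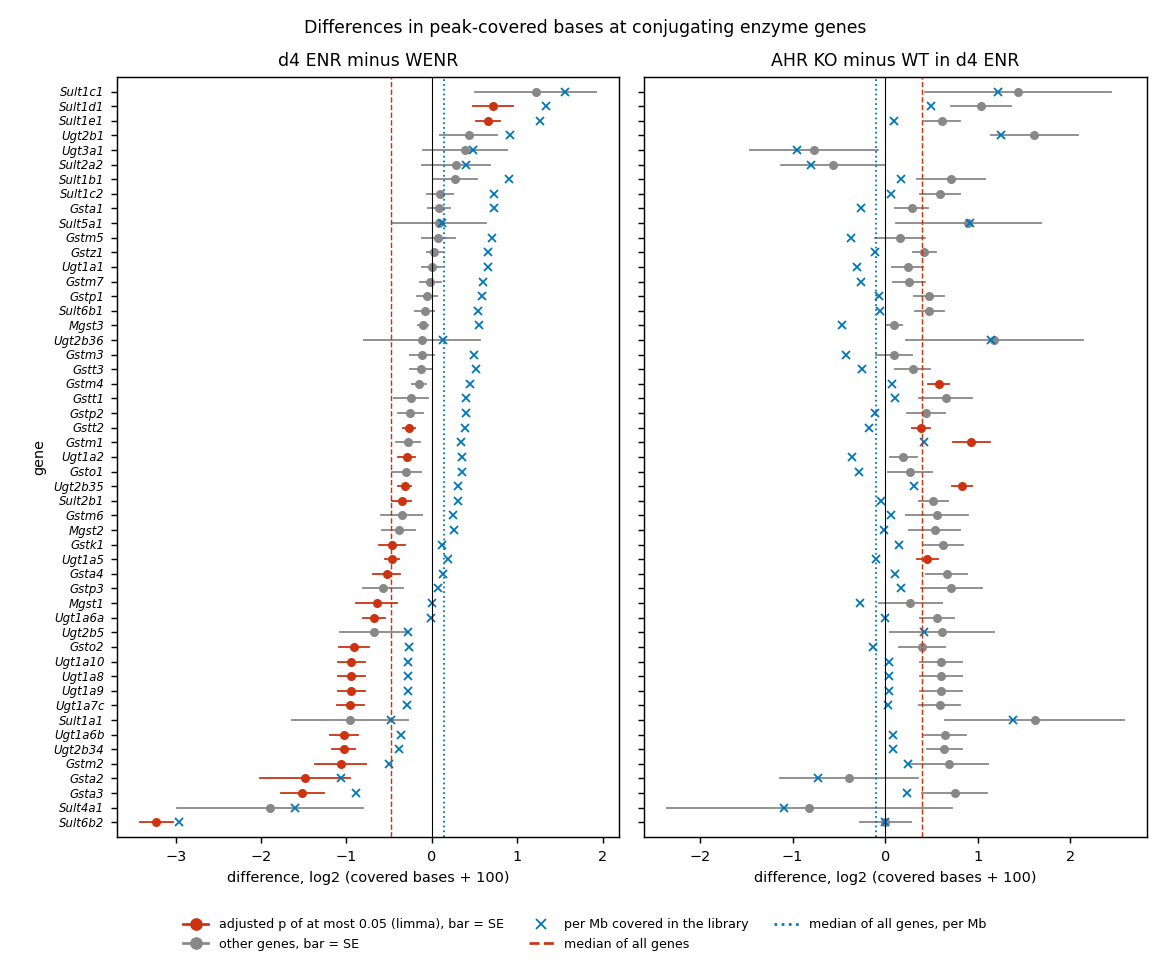
Difference in log2(covered bases + 100) for the 51 members, d4 ENR minus WENR (left) and AHR KO minus WT in d4 ENR (right), with bars for 1 SE and red points for an adjusted p of at most 0.05 in limma. Crosses give the difference per Mb covered in the library and vertical lines the median over all genes, which moves from −0.48 to 0.14 on the left and from 0.39 to −0.10 on the right.

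Among the glutathione transferases, the alpha class gene *Gsta3* (chr1:21240589-21265661, +), whose product also works as a steroid isomerase, had the largest difference in this fit. Peaks covered 2758 and 3713 bp in WT WENR, 2977, 3812 and 3834 bp in AHR KO WENR, 1003, 451 and 1225 bp in WT d4 ENR, and 1720 and 1245 bp in AHR KO d4 ENR. All 5 WENR libraries were above all 5 d4 ENR libraries, and the difference was −1.52 ± 0.25 (SE; limma, adjusted p = 0.00199). Most of the regions that differed lay in introns. An intron region at chr1:21243696-21245177 had a peak in all 5 WENR libraries and only in AHR KO replicate 1 of d4 ENR, one at chr1:21256458-21257071 had a peak in 4 WENR and no d4 ENR library, and the promoter region at chr1:21240075-21241642 kept a peak in all 10. Its fold_enrichment, the pileup of a peak over the local background of its own library, was 2.45 to 3.72 in WENR and 3.42 to 4.37 in d4 ENR, so the promoter peak was no weaker in d4 ENR by this measure. When all lists were cut to the 33433 most significant peaks, the difference at *Gsta3* turned to 2.36 (limma, adjusted p = 0.0276), and no direction holds across both ways of listing peaks. Per Mb covered it was −0.89 (limma, adjusted p = 0.0202), smaller in size than at *Gsta2* below.

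The other alpha class genes are textbook NRF2 targets. *Gsta4*, whose product detoxifies 4-hydroxynonenal from lipid peroxidation, was covered over 5632 to 6140 bp in WENR, over 2189, 3637 and 4061 bp in WT d4 ENR and over 4913 and 5317 bp in AHR KO d4 ENR. Media did not overlap, and the difference was −0.53 ± 0.16 (SE; limma, adjusted p = 0.023), which became 0.13 per Mb covered. *Gsta1* held 1609 to 1963 bp in WENR and 1327 to 2216 bp in d4 ENR, with overlapping media and a difference of 0.09 ± 0.13 (limma, adjusted p = 0.551). Its strongest peak was the only one of a member to sit lower in its list in d4 ENR at an unadjusted p of 0.02, at a mean percentile of 54.8 and 56.8 in WT and AHR KO WENR and 41.8 in both genotypes in d4 ENR (exact permutation test, 2-sided, the smallest p that 100 arrangements allow, adjusted p = 0.0587). Its near copy *Gsta2* was low throughout, at 357 to 817 bp in WENR and 0 to 387 bp in d4 ENR, with 0 bp in 2 libraries there. The media overlapped, and it fell by 1.48 on the log2 scale (SE 0.53; limma, adjusted p = 0.0414). With lists of equal length the difference turned to 0.38 (limma, adjusted p = 0.534), and per Mb covered it was −1.06 (adjusted p = 0.181).

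In the mu class cluster on chromosome 3, all 7 genes had a promoter peak in all 10 libraries. With the medium, 1 of the 7 was called lower, against 57.8% of all genes. Per Mb covered, *Gstm1*, *Gstm3*, *Gstm4*, *Gstm5* and *Gstm7* were called higher by 0.34 to 0.70 (limma, adjusted p of at most 0.05). *Gstm2* and *Gstm6* were not, and 30.6% of all genes were called higher by that scaling. *Gstm2* went from 803 to 1440 bp in WENR to 254, 252 and 657 bp in WT d4 ENR and 394 and 990 bp in AHR KO d4 ENR. One AHR KO library in d4 ENR reached into the WENR range, and the difference was −1.07 ± 0.30 (SE; limma, adjusted p = 0.0175). It turned to 0.77 with lists of equal length (limma, adjusted p = 0.0977) and was −0.50 per Mb covered (adjusted p = 0.146), so the call rests on the full lists. A peak downstream of *Gstm2* at chr3:107980023-107980741 was present in 4 WENR libraries, with a fold_enrichment of 5.17 and 4.38 in WT and 2.39 and 2.53 in AHR KO, and in d4 ENR only in AHR KO replicate 2 (2.55). At *Gstm1*, a broad detoxifying transferase, the promoter region at chr3:108017306-108018548, which holds the printed run, had a fold_enrichment of 4.17 to 6.13 over the 10 libraries. The medium difference at *Gstm1* was −0.28 ± 0.14 (limma, adjusted p = 0.115).

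The pi class gene *Gstp1*, a textbook NRF2 target, and the microsomal gene *Mgst3*, which also reduces lipid peroxides, stayed close to their WENR values. *Gstp1* held 2222 to 2772 bp in WENR, 1650, 2000 and 2461 bp in WT d4 ENR, and 2706 and 2970 bp in AHR KO d4 ENR (difference −0.06 ± 0.12; limma, adjusted p = 0.667). *Mgst3* held 5654 to 5913 bp in WENR and 4781 to 5680 bp in d4 ENR (−0.11 ± 0.06; limma, adjusted p = 0.156), with 3 intron peaks besides the promoter in all 10 libraries. Relative to the median of −0.48 over all genes, both sat above it, and per Mb covered the difference was 0.59 at *Gstp1* and 0.56 at *Mgst3*. The strongest transferase promoter peaks were those of *Gstk1*, the mitochondrial and peroxisomal form (fold_enrichment 4.65 to 8.89), and of *Gstz1*, which acts in tyrosine breakdown (6.04 to 8.46 in a region shared with the start of *Pomt2*).

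The *Ugt1a* locus (chr1:88055388-88220002, +) showed the largest loss of covered bases among the members and the widest spread between libraries. Its 9 genes share 22 regions, of which 21 lie at more than 1 member and 6 held a peak in all 10 libraries, so their values are not independent. Over the locus, peaks covered 24478 and 21615 bp in WT WENR, 19141, 19120 and 12820 bp in AHR KO WENR, 6683, 8791 and 9573 bp in WT d4 ENR, and 11718 and 13581 bp in AHR KO d4 ENR. Values in WT fell between the media without overlap, while AHR KO WENR replicate 3 lay within the d4 ENR range of AHR KO. Per Mb covered in the whole list the locus held 370 ± 36.5 bp (SD, n = 2) in WT WENR, 268 ± 66.9 bp (n = 3) in AHR KO WENR, 254 ± 20.3 bp (n = 3) in WT d4 ENR and 261 ± 13.8 bp (n = 2) in AHR KO d4 ENR.

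**Figure D3:**
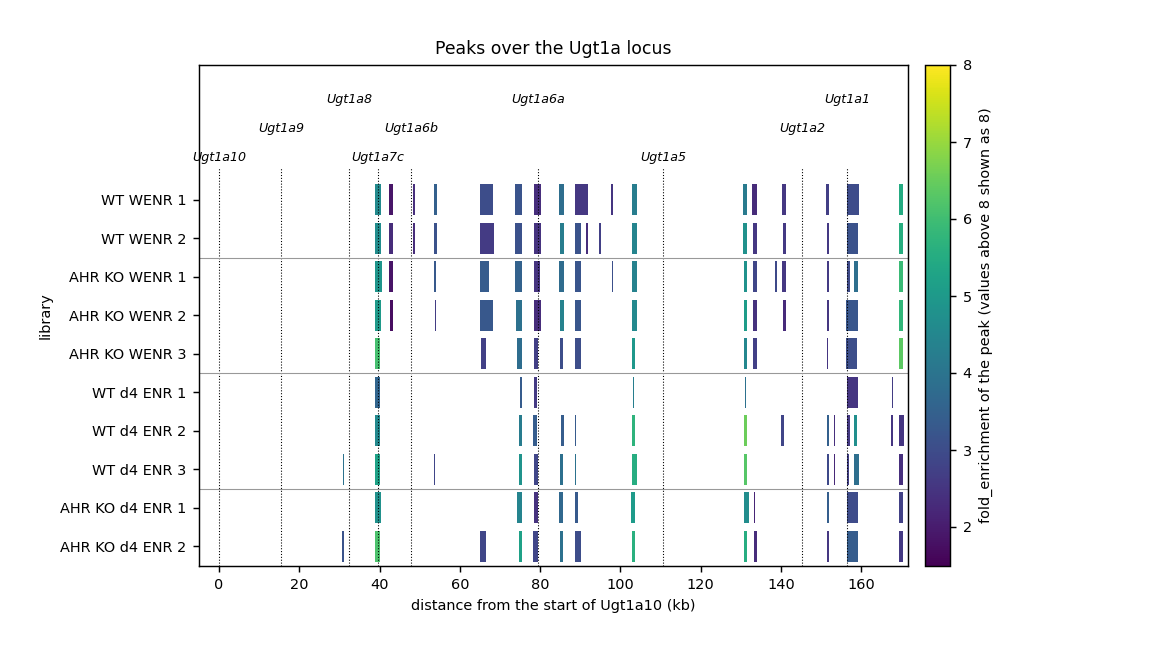
Peaks along the *Ugt1a* locus in each of the 10 libraries, by distance from the start of *Ugt1a10* in kb, coloured by fold_enrichment, with dotted lines at the start of each gene. The starts of *Ugt1a7c*, *Ugt1a6a* and *Ugt1a1* carry a peak in all 10 libraries, and the 12 to 17 regions with a peak per WENR library compare with 7 to 13 in d4 ENR.

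By gene, the fit gave −0.95 ± 0.16 (SE; limma, adjusted p = 0.00195) for *Ugt1a7c* (chr1:88095062-88220002), −1.03 ± 0.16 (0.00168) for *Ugt1a6b* and −0.68 ± 0.13 (0.00347) for *Ugt1a6a*, whose products conjugate planar phenols. *Ugt1a8*, *Ugt1a9* and *Ugt1a10* contain the same peaks and had identical values, with −0.94 ± 0.16 (limma, adjusted p = 0.00212). Per Mb covered the difference was −0.29 at *Ugt1a7c*, −0.37 at *Ugt1a6b*, −0.013 at *Ugt1a6a* and −0.28 at *Ugt1a8* to *Ugt1a10* (limma, adjusted p = 0.118, 0.0646, 0.929 and 0.132). With lists of equal length it was −0.28, −0.25, −0.15 and −0.24 (adjusted p = 0.149, 0.220, 0.443 and 0.198). None of these genes passed by either alternative. The profile over the 10 libraries most like that of *Ugt1a7c* was that of *Ugt1a6b* (Pearson r = 0.9997), followed by *Ugt1a9* and *Ugt1a10* (0.9995), all of which count the same peaks. *Ugt1a1*, the bilirubin transferase at the end of the locus, held 2241 to 3372 bp in WENR and 2493 to 3348 bp in d4 ENR (0.00 ± 0.12; limma, adjusted p = 0.973), and per Mb covered the difference was 0.66 (limma, adjusted p = 0.0195). With 20 kb on each side its difference was −0.61, since that window takes in more of the shared locus.

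Part of the loss lay between the starts, in introns of the long *Ugt1a* transcripts. A region of 3395 bp at chr1:88120397-88123791, between the starts of *Ugt1a6b* and *Ugt1a6a*, was covered over 3307 and 3374 bp in WT WENR and 2255, 3250 and 1042 bp in AHR KO WENR. In d4 ENR it had a peak only in AHR KO replicate 2 (1384 bp). The *Ugt1a6a* promoter region at chr1:88133631-88135554 was covered over 1035 to 1798 bp in WENR and 751 to 1153 bp in d4 ENR. The *Ugt1a7c* promoter region at chr1:88094149-88095928 was covered over 1364 to 1651 bp in WENR and 1209 to 1621 bp in d4 ENR, with a fold_enrichment of 4.60 to 6.07 in WENR and 3.60 to 6.16 in d4 ENR. Downstream of the last exon, at chr1:88224702-88225960, fold_enrichment was 5.47 to 6.36 in the WENR libraries and 2.38 to 2.77 in 4 d4 ENR libraries, with no peak in WT d4 ENR replicate 1. Fold_enrichment at this region did not overlap between the media.

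In the *Ugt2b* cluster on chromosome 5, *Ugt2b34* (chr5:86889767-86906937, −) had the only promoter with a peak in all 10 libraries. Ugt2b enzymes conjugate steroids, bile acids and fatty acids. *Ugt2b34* was covered over 5972 and 6606 bp in WT WENR, 5641, 5413 and 6580 bp in AHR KO WENR, 1871, 2156 and 3063 bp in WT d4 ENR, and 3806 and 3513 bp in AHR KO d4 ENR. The media did not overlap, the difference was −1.03 ± 0.14 (SE; limma, adjusted p = 0.000725), and per Mb covered it was −0.38 (limma, adjusted p = 0.00459). With lists of equal length it was −0.11 and no longer passed (limma, adjusted p = 0.517). Its intron region at chr5:86903147-86905042 had a peak in all 5 WENR libraries (fold_enrichment 1.49 to 1.60) and in no d4 ENR library. *Ugt2b35*, whose only region with a peak in all 10 libraries lay downstream at chr5:87014357-87016081, fell by 0.32 on the log2 scale (SE 0.08; limma, adjusted p = 0.0094), became 0.31 per Mb covered, and rose by 0.81 when the gene body was taken alone. Its other peaks lay at the start, over 291 bp in AHR KO WENR replicate 3 and 400 and 373 bp in AHR KO d4 ENR. The gene body value thus rests on few bases in AHR KO libraries alone and depends on the 100 bp added.

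The sulfotransferases moved in both directions. *Sult6b2* (chr6:142785204-142804502, −) was covered over 743 and 864 bp in WT WENR, 617, 878 and 1208 bp in AHR KO WENR and 0 bp in all 5 d4 ENR libraries. Its peaks were weak, with a fold_enrichment of 2.81 to 3.62 at the exon region chr6:142785159-142785775, and no peak was left in any library when lists were cut to equal length. It entered the fit only through WENR, so the difference of −3.23 ± 0.19 (SE; limma, adjusted p = 1.98e-05) depends on the 100 bp added and is no measure of fold. *Sult2b1*, the cholesterol sulfotransferase, was the most covered *Sult* gene, with 8336 to 8703 bp in WENR and 4495 to 8798 bp in d4 ENR (−0.35 ± 0.11, limma, adjusted p = 0.0264, and 0.31 per Mb covered), and 1 of its 3 promoter regions, all with a peak in 10 libraries, is shared with *Lmtk3*.

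*Sult1d1*, which sulfonates catecholamines and other phenols, and its neighbour *Sult1e1*, the estrogen sulfotransferase, were the members that rose. *Sult1d1* (chr5:87554645-87569027, −) held 1228 and 1183 bp in WT WENR and 1301, 1137 and 1201 bp in AHR KO WENR, against 987, 1179 and 2347 bp in WT d4 ENR and 3650 and 2420 bp in AHR KO d4 ENR. WT d4 ENR replicates 1 and 2 lay under or within the WENR range and the other 3 d4 ENR libraries above it. The difference was 0.72 ± 0.23 (SE; limma, adjusted p = 0.0286), or 1.34 per Mb covered (adjusted p = 0.000823), and with lists of equal length 0.78 (adjusted p = 0.256). An intron region at chr5:87562606-87563572 had no peak in WENR and covered 165 and 678 bp in WT replicates 2 and 3 and 616 and 678 bp in AHR KO in d4 ENR. *Sult1e1* had no promoter peak, and its value is that of 1 flanking region shared with *Sult1d1* (chr5:87572917-87574617), at 719 to 894 bp in WENR and 778, 1147, 1248, 1639 and 1655 bp in d4 ENR (0.66 ± 0.14, limma, adjusted p = 0.00558, and 1.26 per Mb covered). With lists of equal length the difference at *Sult1e1* was 1.55 and did not pass (limma, adjusted p = 0.194).

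*Sult1b1*, which sulfonates thyroid hormones and small phenols in the gut, did not pass the test over the whole gene (0.27 ± 0.26; limma, adjusted p = 0.366), although per Mb covered it did (0.91, adjusted p = 0.00737), and its starts had different peaks. The inner start, at chr5:87534767-87536805, had a peak in all 10 libraries, with a fold_enrichment of 4.13 and 5.61 in WT WENR, 4.95, 4.86 and 5.11 in AHR KO WENR, 4.10, 6.06 and 3.76 in WT d4 ENR, and 3.02 and 3.82 in AHR KO d4 ENR. The outermost start, at chr5:87537961-87538546, had no peak in WENR and a fold_enrichment of 2.70, 4.13 and 3.76 in WT and 2.94 and 3.37 in AHR KO libraries in d4 ENR, over 234 to 586 bp. This region was again in all 5 d4 ENR and no WENR list when lists were cut to equal length, and not under a −log10 q minimum of 5. The 250 bases upstream of both starts are shown so that the pair can be compared. They were chosen after these values were seen, lie at chr5:87536223-87536472 for the inner and chr5:87538196-87538445 for the outermost start (GRCm38.p6, both −), and have capitals at the AHR:ARNT core.
*Sult1b1* inner start: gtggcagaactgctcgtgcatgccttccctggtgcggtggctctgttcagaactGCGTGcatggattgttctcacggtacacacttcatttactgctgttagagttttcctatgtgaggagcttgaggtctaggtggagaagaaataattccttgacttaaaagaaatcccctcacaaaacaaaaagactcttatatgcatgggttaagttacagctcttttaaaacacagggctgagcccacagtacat
*Sult1b1* outermost start: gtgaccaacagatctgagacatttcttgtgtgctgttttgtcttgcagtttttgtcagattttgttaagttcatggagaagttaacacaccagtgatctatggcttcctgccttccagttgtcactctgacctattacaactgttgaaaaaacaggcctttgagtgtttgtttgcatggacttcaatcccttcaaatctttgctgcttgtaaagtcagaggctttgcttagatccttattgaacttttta
The core GCGTG begins 196 bases before the inner start, and neither strand of the outer run holds it. GC content was 44.8% for the inner and 39.2% for the outer run.

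**Figure D4:**
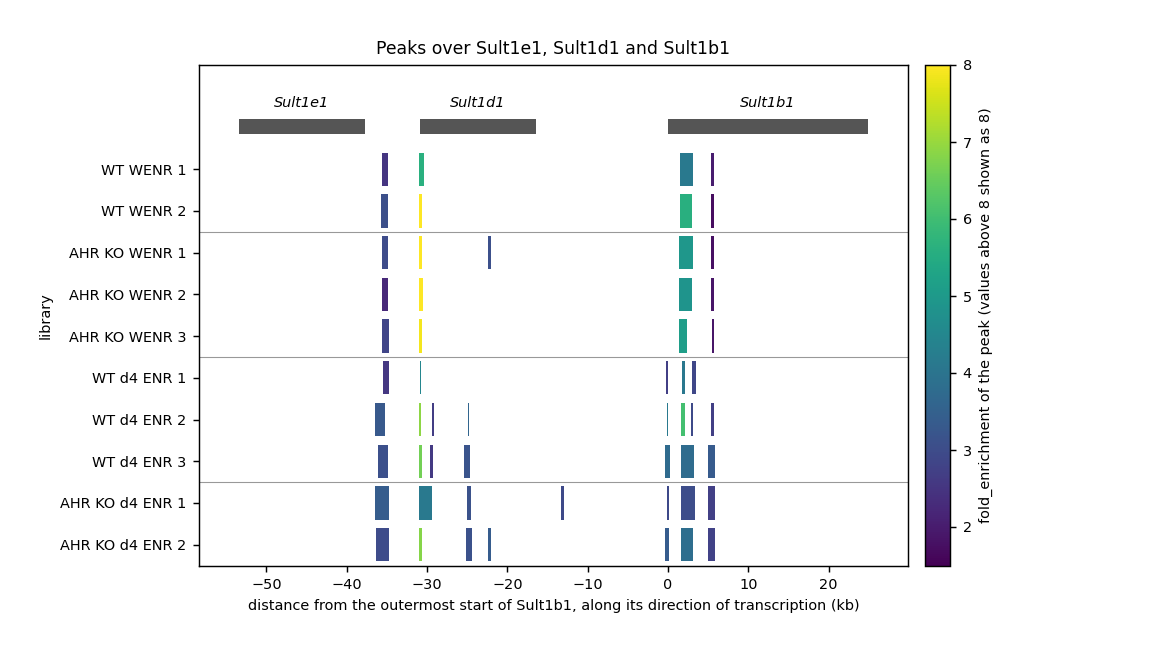
Peaks over *Sult1e1*, *Sult1d1* and *Sult1b1* in each of the 10 libraries, by distance in kb from the outermost start of *Sult1b1* along its direction of transcription, coloured by fold_enrichment. The mark at 0 kb is present in the 5 d4 ENR and in none of the 5 WENR libraries, and a peak inside the *Sult1d1* bar recurs at the same place in WT d4 ENR 2 and 3 and in AHR KO d4 ENR 1 and 2.

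Other *Sult* genes were covered in part of the libraries. *Sult4a1*, a brain form, had 1301 and 0 bp in WT WENR, 1655, 1467 and 0 bp in AHR KO WENR, and 449 bp in WT d4 ENR replicate 1 alone in d4 ENR. *Sult1c1* had a region just upstream of its start (chr17:53991662-53992972) with a peak in 7 libraries, covering 626 and 426 bp in WT WENR, 269 bp in AHR KO WENR replicate 2, 719 and 916 bp in WT d4 ENR replicates 2 and 3, and 1311 and 890 bp in AHR KO d4 ENR. Libraries of the same group differed from 0 to over 400 bp at both genes, and neither passed the test for the medium (limma, adjusted p = 0.156 and 0.162). Both genes were named for this spread after their values were seen. With lists of equal length *Sult1c1* was called higher in d4 ENR, by 2.84 (limma, adjusted p = 0.0104), and *Sult4a1* was not called (0.41, adjusted p = 0.527).

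**Figure D5:**
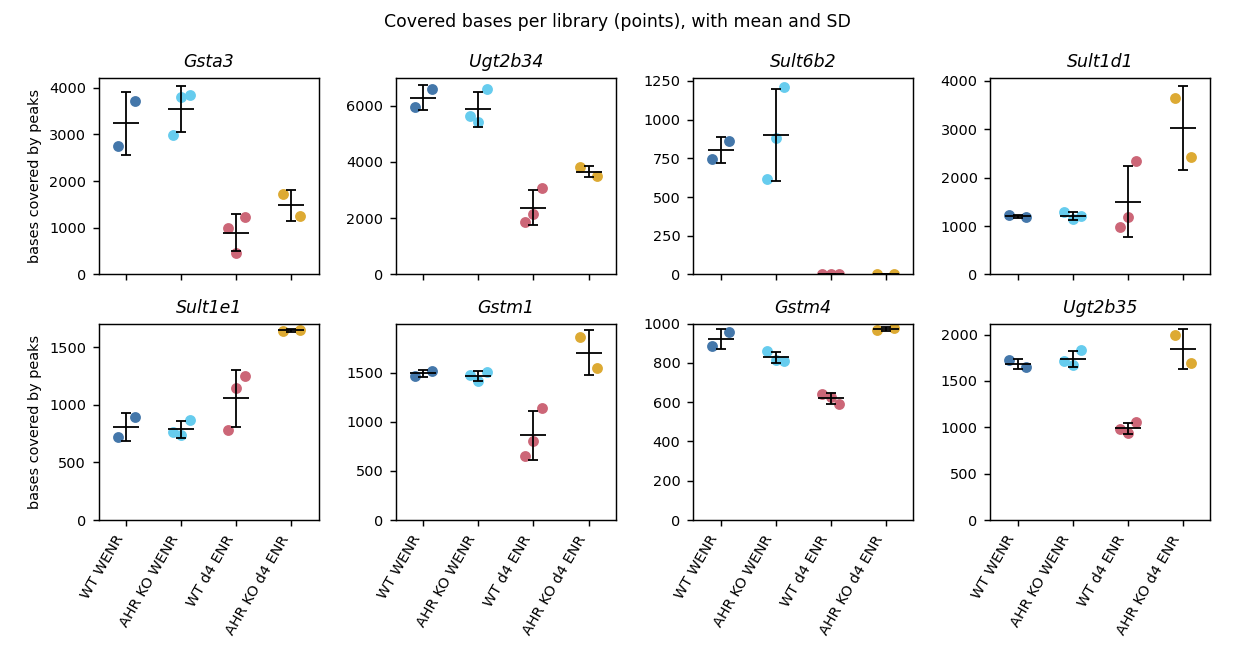
Bases covered by peaks at 8 members in each library (points), with the group mean and SD (n = 2 or 3). *Gsta3*, *Ugt2b34* and *Sult6b2* are lower in d4 ENR in both genotypes, *Sult1d1* and *Sult1e1* reach their highest values in AHR KO d4 ENR, and at *Gstm1*, *Gstm4* and *Ugt2b35* the WT d4 ENR libraries lie below all others.

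The comparison of the genotypes asked whether loss of AHR changed open chromatin at these genes in either medium. In d4 ENR, 5 of 51 members were higher in AHR KO and 0 lower (limma, adjusted p of at most 0.05), or 9.80% against 13.9% and 0.0463% of the genes tested. The median difference was 0.56 over the members and 0.39 over all genes. At 26 members the values of both AHR KO libraries exceeded those of the 3 WT libraries (51.0%, against 54.4% of genes). Of these, 8 are *Ugt1a* genes with shared peaks. At 0 members both AHR KO values were under those of WT (0.237% of genes). Per Mb covered the median over all genes was −0.10. There 0 members were called, against 1.36% of genes higher and 0.249% lower. The 5 were *Gstm1*, *Ugt2b35*, *Gstm4*, *Ugt1a5* and *Gstt2*, and the count rose to 30 without WT d4 ENR replicate 3 (58.8% of members, against 47.9% of genes), fell to 1 without AHR KO d4 ENR replicate 1 or 2, and was 2 or 3 without any of the 5 WENR libraries or WT d4 ENR replicate 2.

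*Ugt2b35* held 1724 and 1650 bp in WT WENR, 1711, 1674 and 1836 bp in AHR KO WENR, 985, 934 and 1054 bp in WT d4 ENR, and 2000 and 1695 bp in AHR KO d4 ENR. The 3 WT d4 ENR libraries stood below all others, and AHR KO exceeded WT in d4 ENR by 0.83 ± 0.11 (SE; limma, adjusted p = 0.00512), against 0.31 per Mb covered (adjusted p = 0.310). *Gstm4* held 886 and 958 bp in WT WENR, 858, 815 and 810 bp in AHR KO WENR, 640, 627 and 590 bp in WT d4 ENR, and 965 and 978 bp in AHR KO d4 ENR, all from its promoter region (chr3:108044410-108045395). The genotypes parted in d4 ENR by 0.58 ± 0.11 (SE, limma, adjusted p = 0.0189, and 0.07 per Mb covered), while the fold_enrichment of this promoter was 4.05, 7.39 and 7.01 in WT and 5.19 and 5.70 in AHR KO d4 ENR, which overlap.

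*Gstm1* held 1466 and 1518 bp in WT WENR, 1479, 1412 and 1504 bp in AHR KO WENR, 647, 803 and 1138 bp in WT d4 ENR, and 1866 and 1542 bp in AHR KO d4 ENR (difference in d4 ENR 0.93 ± 0.20, SE, limma, adjusted p = 0.027, and 0.42 per Mb covered). Its intron region at chr3:108013284-108013762 had no peak in WT d4 ENR replicates 1 and 2 and a peak in the other 8 libraries. *Ugt1a5* differed by 0.46 ± 0.12 (limma, adjusted p = 0.0423; −0.10 per Mb covered) and *Gstt2* by 0.39 ± 0.09 (0.0369; −0.17 per Mb covered), so both reverse with that scaling. The regions with a peak in both AHR KO and no WT library in d4 ENR numbered 2 (1.44%, against 2.84% of all regions). One, in an intron of *Ugt2b1* (chr5:86917952-86918806), had a peak in no other library, with a fold_enrichment of 2.51 and 2.94, and the other, in the *Ugt1a* locus (chr1:88188254-88189489), also had one in all 5 WENR libraries.

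In WENR, 0 members were called between the genotypes by limma, against 0.0694% of genes higher and 0.0405% lower in AHR KO. All 3 AHR KO libraries lay below both WT libraries at 15 members (29.4%, against 11.1% of genes), 8 of which are *Ugt1a* genes with shared peaks, and above them at 5 (9.80%, against 11.8%). At *Ugt1a7c* the difference was −0.46 ± 0.22 (limma, adjusted p = 1.0). A small region within an intron of *Ugt1a6b* (chr1:88103801-88104286) had a peak in both WT WENR libraries (fold_enrichment 2.36 and 2.30) and in no other library. The difference between media of the genotype effect passed in 0 members by limma, against 1.26% of genes higher and 0.0463% lower. At an unadjusted p under 0.05 there were 19, among them most *Ugt1a* genes with shared peaks. The share of all genes at that unadjusted threshold was not counted, so the 19 cannot be set against a background. The media ran in opposite directions without overlap, lower in WT and higher in AHR KO, at 4 members (2.12% of genes), and the reverse order held at 0 (0.00578% of genes).

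Ranked by fold_enrichment within its own list, the strongest peak of a member passed no adjusted test between media or genotypes among the 41 members with a peak in all 10 libraries (exact permutation tests, 2-sided). At an unadjusted p of at most 0.05, 9 members stood higher and 1 lower in d4 ENR, against 22.8% and 19.5% of genes, and 0 differed by genotype (4.38% and 2.99% of genes). Among the 9 were *Gsta3*, *Ugt1a6a* and *Ugt2b34*, whose covered bases fell. The 9 are 22.0% of the 41, close to the 22.8% of genes, and the lists ranked differ in length between the media. They are not 9 separate peaks. The strongest peak was the same for *Ugt1a6a* and *Ugt1a6b*, for *Ugt2b34* and *Ugt2b1*, and for *Gsto1* and *Gsto2*. *Ugt1a5* shared that of *Ugt1a6a* in some libraries. The strongest peak of *Gsta3* had a mean percentile of 32.3 in WT WENR, 23.9 in AHR KO WENR, 54.7 in WT d4 ENR and 46.9 in AHR KO d4 ENR.

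Genes of the same pathways were read against the same background, in which 57.8% of all genes fell and 0.983% rose with the medium, with a median of −0.48. The differences at these genes, here and in the paragraphs below, are of unscaled bases and are not given per Mb covered. By that scaling, 30.6% of all genes were called higher and 14.7% lower with the medium. In d4 ENR the share called higher in AHR KO was then 1.36% in place of 13.9%. Of 8 genes for glutathione supply, 6 fell and 0 rose, with a median difference of −0.71. *Gclm*, the modifier subunit of the rate-limiting ligase, went from 3593 to 4318 bp in WENR to 1958 to 2398 bp in d4 ENR without overlap (−0.84 ± 0.07; limma, adjusted p = 0.000126). *Slc7a11*, which imports cystine, fell by 0.90 on the log2 scale (SE 0.19; limma, adjusted p = 0.005). Of 8 genes for the donors UDP-glucuronate and PAPS, 4 fell and 0 rose (median −0.37), among them *Papss1*, which makes PAPS, by 1.26 (SE 0.23; limma, adjusted p = 0.00283). In d4 ENR, *Gss*, glutathione synthetase, was higher in AHR KO (7450 and 7265 bp) than in WT (4183, 4448 and 4750 bp) by 0.71 ± 0.09 (limma, adjusted p = 0.00473), and *Gpx2*, the gut glutathione peroxidase, by 0.98 ± 0.22 (0.0314). These were 2 of the 8 glutathione genes, where 13.9% of all genes were higher in AHR KO.

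Among the 7 transporters that export conjugates and drugs, 5 fell and 1 rose (57.8% and 0.983% of all genes), with a median difference of −0.75 against −0.48 over all genes. *Abcg2*, which exports sulfates and porphyrins, held 1392 and 918 bp in WT WENR, 786, 1697 and 1527 bp in AHR KO WENR, 3251, 2871 and 4223 bp in WT d4 ENR, and 4521 and 3981 bp in AHR KO d4 ENR. Every d4 ENR library was above every WENR library, with a difference of 1.58 ± 0.23 (SE; limma, adjusted p = 0.00107). *Abcb1a*, the drug exporter P-glycoprotein, went the other way, from 11631 to 18992 bp in WENR to 3316 to 5058 bp in d4 ENR (−1.98 ± 0.14; limma, adjusted p = 3.67e-05). Of 3 genes measured for the removal of conjugates, 2 fell with the medium (median −0.62), and 2 were higher in AHR KO in d4 ENR (13.9% of all genes), namely *Gusb*, the lysosomal glucuronidase (1.27 ± 0.20; limma, adjusted p = 0.0107), and *Arsa* (0.53 ± 0.11; 0.024).

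Of 8 other AHR or NRF2 responsive genes, 6 fell with the medium and 0 rose (57.8% and 0.983% of all genes), with a median of −0.72 against −0.48 over all genes. *Aldh3a1*, an aldehyde dehydrogenase and textbook AHR target, held 1361 and 1398 bp in WT WENR, 1368, 1375 and 1458 bp in AHR KO WENR, 0 bp in the 3 WT d4 ENR libraries and 360 and 616 bp in AHR KO d4 ENR. It was the only one of the 8 called between genotypes in d4 ENR (limma, adjusted p = 0.00079) and in the difference of the genotype effect between media (adjusted p = 0.0113), with fitted values that depend on the 100 bp added because a group is at 0. *Nqo1*, the NRF2 target quinone reductase, differed between the genotypes in d4 ENR by 0.86 ± 0.27 (limma, adjusted p = 0.0679) and *Cyp1a1*, the classical AHR target, by 0.47 ± 0.49 (adjusted p = 0.456). Of 8 regulators, 7 fell with the medium (57.8% of all genes), with a median of −0.56. Of these 8, *Nfe2l2*, the gene for NRF2, and *Rxra*, the partner of many nuclear receptors, were higher in AHR KO in d4 ENR (13.9% of all genes), by 1.12 ± 0.26 (limma, adjusted p = 0.0342) and 0.99 ± 0.26 (0.0436).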

How the data were processed

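Omni-ATAC-seq was measured in 10 libraries of mouse colon organoids, grouped by genotype and medium from the labels. Read trimming, BWA alignment to GRCm38 and filtering were done by the authors with nf-core/atacseq. Their MACS 2.2.7.1 run gave a separate list of broad peaks per library (paired-end, no control, q values of 0.1 for broad and 0.05 for narrow regions, background window of 10000 bp). The deposited peak lists give positions, the mean pileup as a coverage signal, the ratio of pileup to local background (fold_enrichment) and −log10 p-values and q-values. Both depth and the fraction of coverage that falls in peaks set which peaks are listed. Since no read counts were used, covered bases were tested in place of counts.

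Peaks of all libraries were merged where they shared at least 1 bp. Bases covered by peaks were counted per gene over the body and 5 kb on each side (GENCODE M21) and tested with limma 3.58.1 in R 4.3.3 (4 group means, trend, log2(bases + 100), Benjamini-Hochberg) over 17290 genes, those that had a peak in 1 library or more. Exact permutation tests had 100 arrangements within genotypes, and 10 for 2 against 3 libraries, which cannot go below p = 0.2. Python 3.11.15, numpy 2.4.6, pandas 2.3.3 and blastn 2.17.0 were used, and promoter sequences came from RefSeq (GRCm38.p6). Methods were tested on simulated data. Some marker genes are not reported here by name.

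The members, the gene lists and the tests were chosen with earlier results of these data known. Genes named in full were the 8 members with the largest mean of covered bases, up to 8 past the threshold with the largest difference per contrast, 9 textbook targets of AHR or NRF2 and the 3 profiles most like the first gene. Others were named for their counts, their part in a cluster or their regions, after their values were seen. Alternatives were pseudocounts of 10 and 500 bp, no filter or a mean of 200 bp, lists of 33433 peaks, a −log10 q of at least 5, gene bodies alone or with 20 kb, scaling to the Mb covered, promoters of 3 kb, 50% of a region covered, a replicate block, exact permutation tests and each library left out.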

Additional observations from a re-analysis of the deposited data

Results flagged for a closer look

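At 4 of the 51 members (7.84%, against 2.12% of all genes tested), covered bases were lower in every WT d4 ENR than in every WT WENR library, and higher in every AHR KO d4 ENR than in every AHR KO WENR library. The difference between media of the genotype effect, on the log2 scale, was 0.96 at *Gstm1* (limma, adjusted p = 0.142) and 0.72 at *Gstm4* (adjusted p = 0.0721). It was 0.68 at *Gstt1* (limma, adjusted p = 0.322) and 0.43 at *Gstz1* (adjusted p = 0.232), so none of the 4 passed. *Gstt1* held 3695 to 3698 bp in WT WENR, 3505 to 3678 bp in AHR KO WENR, 1476 to 3328 bp in WT d4 ENR and 3777 to 3960 bp in AHR KO d4 ENR. *Gstz1* held 1344 to 1365, 1332 to 1358, 1087 to 1292 and 1427 to 1814 bp in the same order. The length covered in the whole list also differed between the genotypes in d4 ENR, at 26.2 to 41.0 Mb in WT and 46.6 to 50.1 Mb in AHR KO, and its part in these values was not tested.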

How the results depend on the processing

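The medium called 22 members, 2 higher and 20 lower (0.983% and 57.8% of genes). With lists of equal length it called 5, 2 higher and 3 lower (2.98% and 39.3% of genes). The 2 higher were then *Gsta3* and *Sult1c1*, and the 3 lower *Gstm6*, *Ugt2b35* and *Sult2b1*. *Sult1d1* and *Sult1e1*, the 2 called higher with the full lists, did not pass there (limma, adjusted p = 0.256 and 0.194). The exact permutation test called 9, all lower (51.3% of genes). The count was 14 to 26 with a library left out, and 14 without WT WENR replicate 1, where 42.8% of genes were lower. Scaling to the Mb covered turned 2 higher and 20 lower into 22 higher and 3 lower (30.6% and 14.7% of genes). The genotype in d4 ENR called 5 members, all higher in AHR KO (13.9% of genes). It called 2 with lists of equal length (13.4% of genes) and 2 at a −log10 q of at least 5 (10.8%). With 20 kb on each side it called 11 (21.7% of genes), and per Mb covered 0 (1.36%). It called 0 by the exact permutation test, which cannot pass with 10 arrangements, and 1 to 30 with a library left out (3.48% to 47.9% of genes). With the replicate number as a block it called 14, the medium 22 (0.798% of genes higher and 52.7% lower), and the other contrasts 0. In d4 ENR the block called 29.2% of all genes higher in AHR KO in place of 13.9%. Same-numbered libraries deviated from their group means with correlations of −0.020 to 0.012 between the media of a genotype and −0.038 to 0.16 between the genotypes of a medium, which does not show that the numbers pair them. The genotype in WENR called 0, 1 with lists of equal length (lower in AHR KO, as were 0.343% of genes) and 0 to 0 with a library left out. Genotype by medium called 0 (1.26% of genes higher), and 1 with 10 bp added (1.95%) and 1 with no filter (1.16%). It called 2 with lists of equal length (3.09% of genes) and 1 at a −log10 q of at least 5 (3.86%). With a library left out it called 0 to 19. The count was 19 without WT d4 ENR replicate 3 (23.5% of genes) and 2 without replicate 1 (3.39%). Promoters open in all 10 libraries numbered 31, or 17 at a −log10 q of at least 5. Regions numbered 57 (41.0%, against 32.9% of all regions, a set not limited to the surroundings of genes). They were 28 at that q (28.3%, against 25.6%) and 28 at 50% covered (20.1%, against 16.3%). For the medium, lists of equal length reversed *Gsta2* (0.38), *Gsta3* (2.36), *Gsta4* (0.043), *Gstm2* (0.77) and *Ugt1a5* (0.064) among genes named by the rule, and *Gsto2* (0.034), *Mgst1* (2.22) and *Ugt1a2* (0.018) among the other members called. Scaling per Mb reversed *Gsta4* (0.13), *Gstm1* (0.34), *Gstm4* (0.45), *Gstp1* (0.59), *Gstt2* (0.39), *Mgst3* (0.56), *Sult2b1* (0.31), *Ugt1a5* (0.19) and *Ugt2b35* (0.31), and among the other members called *Gstk1* (0.12), *Mgst1* (0.0022) and *Ugt1a2* (0.36). *Ugt1a1* was −0.61 with 20 kb and *Ugt2b35* 0.81 for the gene body alone, where its few covered bases were in AHR KO libraries only. In d4 ENR, scaling per Mb reversed the genotype difference of *Gstt2* (−0.17) and *Ugt1a5* (−0.10). Of 878 repeats for single genes, 728 kept direction and side of the threshold. The cause of the other changes was not tested. *Sult6b2* could not be fitted with lists of equal length, where no peak was left.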
